A study of Mus musculus with 12 samples.

Results

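Chemokines and their receptors were examined in #781, a mouse melanoma line, both as tumors and in culture. They were taken as the 31 genes whose symbol begins with Ccl, Cxcl, Xcl, Cx3cl, Ccr, Cxcr, Xcr, Cx3cr or Ackr followed by a digit, out of 17285 genes listed in both deposited tables. These 31 genes comprise 17 ligands and 14 receptors. RNA came from 12 samples in 4 groups of 3, namely tumors grown from #781 NRF2 knockout cells, tumors grown from #781 control cells, cultured #781 NRF2 knockout cells and cultured #781 control cells. The line was derived from a melanoma of a mouse model that carries Tyr-CreERT2 and BRAF CA, so that all groups share the activated Braf, and Nfe2l2, the gene of NRF2, was cut with a pair of guide RNAs. Tumors grew under the skin of young immunocompetent C57BL/6 mice of both sexes from a single set of knockout and control cells, and the labels do not say which set was cultured for sequencing. Not every mouse that received knockout cells developed a tumor, and onset was delayed in those that did, so that the knockout tumors sequenced are those that grew.

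Chemokines are small secreted proteins that steer the movement of leukocytes along gradients, and most of them are held on glycosaminoglycans of the cell surface and matrix. They act on membrane receptors that signal through inhibitory G proteins, are phosphorylated by receptor kinases and are then taken up with arrestins. Atypical receptors bind chemokines without this G protein signal and remove them. In tumors, chemokines are made by cancer cells, fibroblasts, endothelium and infiltrating leukocytes, and they decide which leukocytes enter.

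The value used for each gene was the authors' mean log2 CPM (counts per 1000000 reads), 1 value for the 6 tumors and 1 value for the 6 cell line samples, with knockout and control samples pooled. Values of single samples were not analysed here, so no standard deviation and no test can be given, and the comparison of knockout with control was not analysed here. For the same reason the loss of Nfe2l2 could not be checked in single samples. The 2 tables were normalized separately. The lowest values of each table fell on even steps, which gave the reads behind them: the lowest value, −1.01 in tumors and −1.05 in cell lines, stands for no read in any of the 6 samples, and the next steps for 1 read, 2 reads and so on. Depth worked out from these steps averaged 4030000 reads per tumor and 4140000 per cell line sample. A count of no read allows up to 3 reads over the 6 samples, which is 0.124 CPM in tumors and 0.121 CPM in cell lines. Read numbers given in this text are such estimates over 6 samples, and intervals made from them cover counting error only, not the spread between samples or between knockout and control. Every gene of the tables had at least 12 reads over all 12 samples, and 171 genes, Ccr4 and Cxcr2 among them, had exactly 12. A gene with no read in cell lines therefore entered the tables through the tumors.

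Most chemokine ligands and the receptors Ccr1, Ccr2, Cx3cr1, Cxcr4 and Ackr3 were found at higher levels in whole tumors than in cultured cells, while Cxcl12, the ligand that dominated in culture, stood lower in tumors. Above a mean log2 CPM of 1, taken as the detection level, were 23 of the 31 genes in tumors (82.2% of all genes) and 7 in cell lines (74.8% of all genes). Ccl28 lay just above this level in tumors, at 1.13, and Cxcr3 just below it, at 0.99. A difference, tumors minus cell lines, of over 1 on the log2 scale (2-fold) with the higher level above detection was seen for 20 of the 31 genes, against 13.6% of all genes. A difference under −1 was seen for Cxcl12 alone, or 1 of 31, against 3.82% of all genes, a share near the background. The median difference was 2.36 over the 31 genes and 0.10 over all genes. Differences above 4 were found for 10 of the 31 genes and for 2.02% of all genes. No read was present in cell lines for 10 of the 31 genes, against 3.03% of all genes, and in tumors for none of the 31 and 0.0463% of all genes. Members without a read in cell lines could only come out higher in tumors, since every gene listed had at least 12 reads over all samples. The counts of higher members therefore describe levels and do not support a direction. The same holds for the counts over the other gene lists and cell type markers given below, which also include genes without a read in cell lines. The samples are bulk RNA, so more cells of a type and more RNA per cell cannot be told apart in any of these values, and host tissue, growth conditions and any difference in library preparation between the tables cannot be told apart either.

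**Figure D1:**
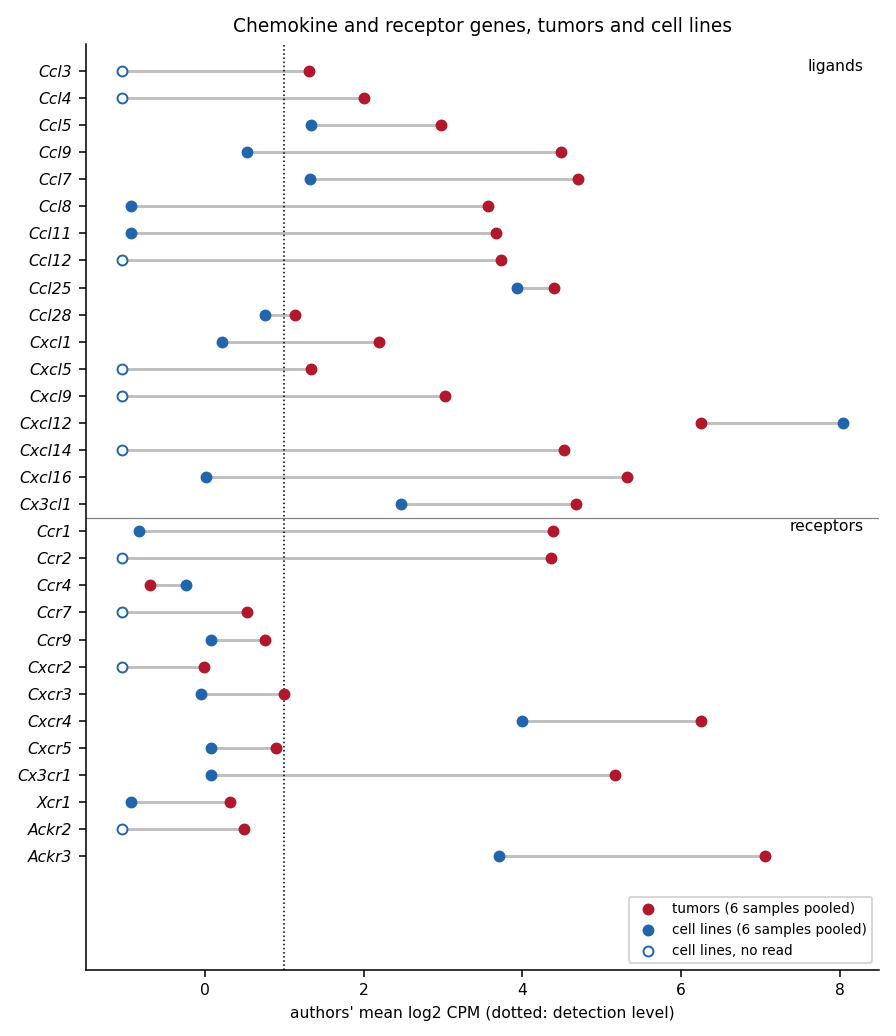
Authors' mean log2 CPM (horizontal axis) of the chemokine and receptor genes described, with ligands above and receptors below the line; red points are the 6 tumors pooled, blue points the 6 cell line samples pooled, open blue points genes with no read in cell lines, and the dotted line the detection level of 1. The red point lies right of the blue one for all genes drawn but Cxcl12 and Ccr4.

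**Figure D2:**
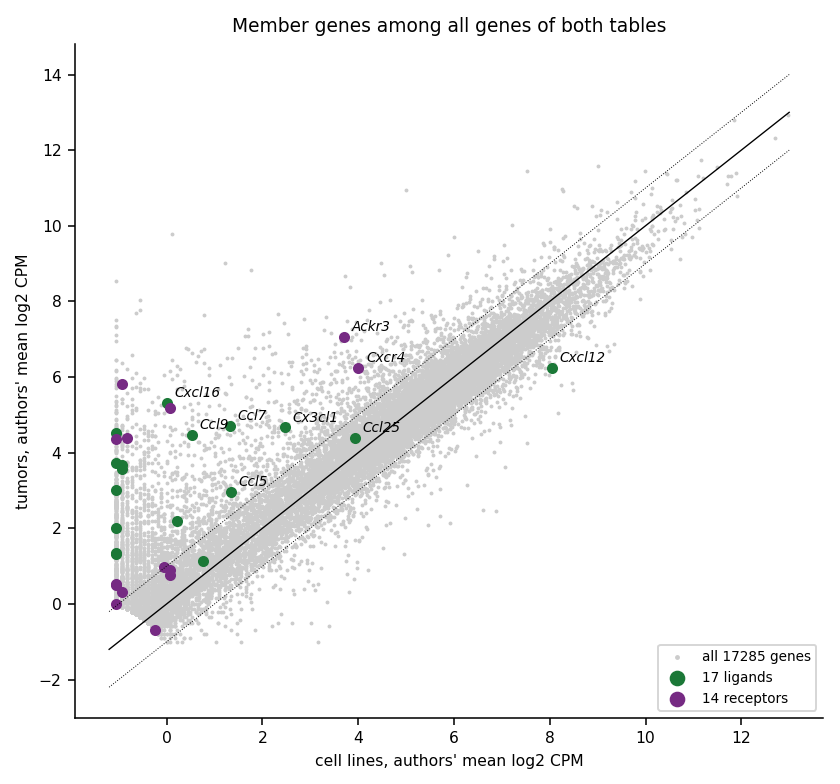
Authors' mean log2 CPM of all 17285 genes (grey) in tumors (vertical axis) and cell lines (horizontal axis), with the 17 ligands in green and the 14 receptors in purple; the solid line marks equal levels and the dotted lines a difference of 1 on the log2 scale. Most member genes lie at the left edge, where cell line levels are near or at no read, and Cxcl12 lies below the dotted lines.

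Cxcl12, which attracts leukocytes and stem cells through Cxcr4 and is bound by Ackr3, had a mean log2 CPM of 6.25 in tumors and 8.04 in cell lines, a difference of −1.78. In reads, that was about 1832 over the 6 tumors and about 6523 over the 6 cell line samples, a fold of 0.289 after the added count was removed (counting interval 0.274 to 0.304). It was the ligand with the highest level per kilobase of exon in culture, at 5.01 on the log2 scale, and the seventh of the ligands in tumors, at 3.22. Its receptor Cxcr4 had a mean log2 CPM of 6.25 in tumors and 4.0 in cell lines, and Ackr3, which scavenges Cxcl12, had 7.06 in tumors and 3.71 in cell lines. These correspond to folds of 4.86 (4.36 to 5.44) and 10.6 (9.45 to 12) higher in tumors. The ligand thus stood on the other side of the comparison from both of its receptors. All 3 genes were well above detection in cultured cells, Cxcr4 with about 385 reads and Ackr3 with about 312.

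The monocyte and eosinophil attractants that lie side by side on chromosome 11 were all higher in tumors. Ccl7, which attracts monocytes through Ccr2, had a mean log2 CPM of 4.70 in tumors and 1.32 in cell lines, or about 617 and 50 reads, a fold of 12.7 (9.51 to 17.3). Ccl12, a mouse ligand of Ccr2, had 3.73 in tumors and no read in cell lines, so that it was at least 106-fold higher when cell lines are set at the limit of 3 reads. For Ccl8, which in mice acts through Ccr8, 274 reads in tumors stood against 1 read in cell lines, a ratio of 282 with a counting interval of 50.2 to 11200. Ccl11, the eosinophil attractant eotaxin, had 296 reads in tumors and 1 read in cell lines, a ratio of 305 (54.2 to 12100). Within this group Ccl7 was the member with more than a single read in culture. Per kilobase of exon, Ccl7, Ccl12 and Ccl8 were the 3 highest of all 17 ligands in tumors, at 5.02, 4.63 and 4.53 on the log2 scale.

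Inflammatory CC ligands differed among themselves in culture. Ccl5, a T cell and monocyte attractant, had a mean log2 CPM of 2.97 in tumors and 1.34 in cell lines, or about 177 and 51 reads, a fold of 3.57 (2.60 to 4.98). Ccl9, which binds Ccr1 in mice, had 4.48 in tumors and 0.53 in cell lines, a fold of 22.5 (15 to 35.5). Ccl3 and Ccl4, the macrophage inflammatory proteins, had about 48 and 84 reads in tumors and no read in cell lines, so that they were at least 16.5-fold and 28.8-fold higher. The 4 genes thus split into Ccl5 and Ccl9, with reads in cultured melanoma cells, and Ccl3 and Ccl4, without any.

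The mucosal chemokines Ccl25 and Ccl28 were the ligands whose levels did not differ by more than 2-fold. Ccl25, the ligand of Ccr9, had a mean log2 CPM of 4.40 in tumors and 3.93 in cell lines, a fold of 1.40 (1.22 to 1.61). For Ccl28, which is made by mucosal epithelium, the values were 1.13 in tumors and 0.76 in cell lines, a fold of 1.41 whose counting interval of 0.857 to 2.33 spans equality. A share of 2.74% of the exon length of Ccl25 lies across exons of Elavl1 on the opposite strand. Elavl1 was abundant, at 6.96 in tumors and 6.95 in cell lines, and the strand setting of the counting is not given in the sources used here, so part of the Ccl25 reads may belong to Elavl1.

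Among CXC ligands other than Cxcl12, levels in culture were low or at no read. Cxcl1 and Cxcl5, which carry the ELR motif and attract neutrophils through Cxcr2, had a mean log2 CPM of 2.19 and 1.34 in tumors, against 0.22 and −1.05 in cell lines. Cxcl1 was thereby 5.93-fold higher (3.52 to 10.6), from about 98 reads in tumors and 17 in cell lines, and Cxcl5 at least 16.8-fold, from 49 reads and none. Cxcl9, an interferon gamma induced attractant of T cells that express Cxcr3, had 3.02 in tumors, about 184 reads, and no read in cell lines, so that it was at least 63.1-fold higher. Cxcl14, a chemokine of epithelia and fibroblasts, had the largest bound of the ligands, at least 186-fold, with a mean log2 CPM of 4.52 in tumors, about 542 reads, and no read in cell lines.

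Both ligands that are anchored in the membrane, and can be shed from it, were higher in tumors. Cxcl16 had a mean log2 CPM of 5.32 in tumors and 0.01 in cell lines, or about 955 and 13 reads, a fold of 75.6 (44.0 to 143). Of its exon length, 18.3% is shared with Zmynd15 on the opposite strand. Zmynd15 moved the same way, at 3.66 in tumors and no read in cell lines, and reads of the shared part cannot be told apart without strand. Cx3cl1, or fractalkine, which holds cells that carry Cx3cr1, had 4.67 in tumors and 2.47 in cell lines, or about 601 and 126 reads, a fold of 4.91 (4.04 to 6.00).

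Ccr1, Ccr2 and Cx3cr1, receptors of monocytes and macrophages, were higher in tumors, whereas 8 receptors, most of them of lymphocytes, dendritic cells and neutrophils, were under detection. Ccr2, which draws monocytes out of the blood, had a mean log2 CPM of 4.36 in tumors, about 485 reads, and no read in cell lines, so that it was at least 166-fold higher. Ccr1 had 4.39 in tumors and 2 reads in cell lines (ratio 254, interval 69.9 to 2100). Cx3cr1, which marks patrolling monocytes, many macrophages and microglia, had 5.17 in tumors and 0.07 in cell lines, or about 860 and 14 reads, a fold of 63.2 (37.5 to 116). Ccr1, Ccr2 and Cx3cr1 thus had 0 to 14 reads in the 6 cell line samples.

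These 8 receptors stayed under the detection level in tumors and cell lines, and together held 7.27 CPM in tumors and 2.01 CPM in cell lines. Their mean log2 CPM lay between −0.69 and 0.99 in tumors and between −1.05 and 0.07 in cell lines. Of the 8, 7 stood higher in tumors, against 55.9% of all genes, with a median difference of 1.04 that rests on few reads. With at least 12 reads needed to be listed, Ccr7, Cxcr2, Ackr2 and Xcr1, with at most 1 read in cell lines, could only come out higher. This count therefore does not support a direction. Cxcr3, found on effector T cells, had 36 reads in tumors and 12 in cell lines, and Cxcr5, found on B cells and follicular helper T cells, had 33 and 14. An overlap of 3.3% of the exon length of Cxcr5 with Bcl9l on the opposite strand, at a mean log2 CPM of 6.6 in tumors and 7.38 in cell lines, means that these few reads cannot be told apart without strand. Ccr9, the gut-homing receptor of lymphocytes, had 29 reads in tumors and 14 in cell lines, and 18.8% of its exon length is shared with AC165425.1 on the opposite strand and 2.62% with Gm17200 on the same strand. Ccr7, which guides naive T cells and mature dendritic cells to lymph nodes, had 23 reads in tumors and none in cell lines, and the scavenger Ackr2, which removes inflammatory CC chemokines, had 22 and none. Xcr1, the receptor of cross-presenting dendritic cells, had 18 reads in tumors and 1 in cell lines. The neutrophil receptor Cxcr2 had 12 reads in tumors and none in cell lines. Ccr4 of regulatory and type 2 helper T cells had 3 reads in tumors and 9 in cell lines, a ratio of 0.343 whose interval of 0.0597 to 1.37 spans equality. With at most 36 reads over the 6 tumors, those of the 8 receptors that had similar reads cannot be put in order at this depth.

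The make-up of ligand RNA differed between tumors and culture more than that of receptor RNA. Levels were divided by exon length for this comparison, since longer transcripts give more reads. In tumors, Ccl7 held 19.7% of the summed ligand level, followed by Ccl12 with 14.7%, Ccl8 with 13.7%, Cxcl16 with 8.09% and Cxcl14 with 7.59%, and Cxcl12 held 5.74%. In cell lines, Cxcl12 held 77.8%, followed by Ccl7 with 6.09%, Ccl5 with 5.18% and Ccl25 with 4.80%. The summed ligand level was 162 CPM per kilobase in tumors and 41.2 in cell lines. For the receptors, Cxcr4 held 38.3% and Ackr3 36.6% in tumors, against 65.4% and 28.6% in cell lines. Cx3cr1 with 7.27%, Ccr1 with 6.63% and Ccr2 with 2.73% were among those that followed in tumors, and each of them held under 1% in cell lines. The summed receptor level was 109 CPM per kilobase in tumors and 13.1 in cell lines. With the longest transcript in place of all exons, Cxcl12 remained first among ligands in cell lines and Ccl7 first in tumors. Cxcl12 moved to the fifth of the ligands in tumors, and Ackr3 passed Cxcr4 in tumors. In cell lines, Ccl25 and Ccl5 both passed Ccl7, and Ccl25 also passed Ccl5. The order of these genes thus depends on the length used.

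**Figure D3:**
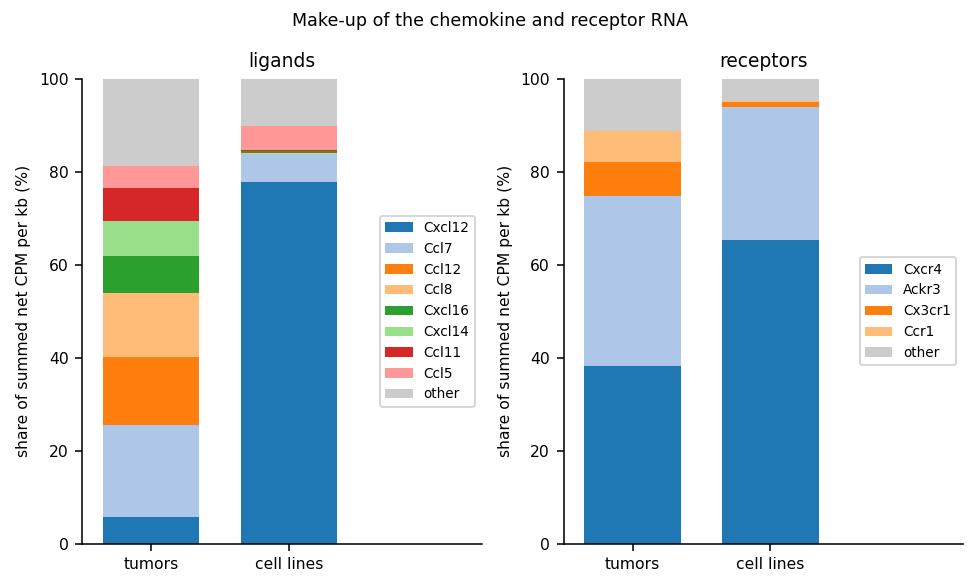
Share (percent, vertical axis) of each gene in the summed net CPM per kilobase of exon of the 17 ligands (left) and of the 14 receptors (right), in tumors and cell lines; other joins the remaining genes. Cxcl12 fills most of the ligand bar of cell lines, and Cxcr4 with Ackr3 most of both receptor bars.

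Ligands and receptors known to act on each other were present in several combinations. The Cxcl12, Cxcr4 and Ackr3 genes were all detected in culture and in tumors. Fractalkine was detected in both, while its receptor Cx3cr1 was above the detection level in tumors only, with about 14 reads in the 6 cell line samples. For Ccr2, the ligand Ccl7 had about 50 reads in cell lines, while the receptor had none. Ccl25 was detected in both settings, and its receptor Ccr9 in neither. For Cxcl9 and Cxcr3, the ligand had a mean log2 CPM of 3.02 in tumors, and the receptor had 0.99.

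Of the 31 genes, 10 lie on chromosome 11 and 9 on chromosome 9 of GRCm38 (GENCODE M21 positions), the build that the submitters name as mm10. Ccl7, Ccl11, Ccl12 and Ccl8 follow each other between 82045712 and 82116799 on chromosome 11, and Ccl5, Ccl9, Ccl3 and Ccl4 between 83525778 and 83664683. In the first stretch the levels in tumors were a mean log2 CPM of 4.70, 3.67, 3.73 and 3.56, against 1.32, −0.93, −1.05 and −0.93 in cell lines. In the second stretch they were 2.97, 4.48, 1.31 and 2.0 in tumors, against 1.34, 0.53, −1.05 and −1.05 in cell lines. On chromosome 9, Ccr9, Xcr1, Ccr1 and Ccr2 lie between 123678439 and 124113557. Ccr1 and Ccr2 were higher in tumors, while their neighbours Xcr1 and Ccr9 were under detection at 0.31 and 0.76 in tumors and at −0.93 and 0.07 in cell lines. The neighbours on chromosome 5, Cxcl5 and Cxcl1, lie 130 kb apart, and Cxcl9 lies 1430 kb further on. Genes next to each other in the genome are not independent, and the counts over members above include these groups.

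**Figure D4:**
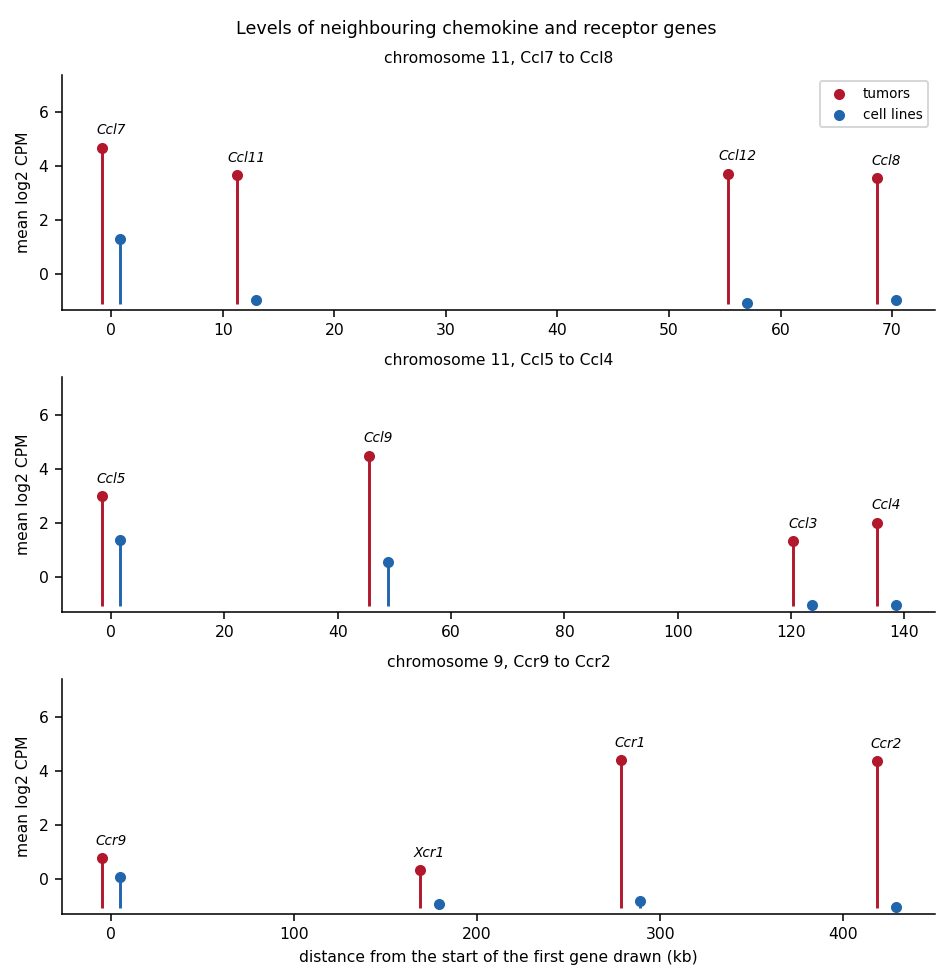
Authors' mean log2 CPM (vertical axis) of neighbouring genes in tumors (red) and cell lines (blue), against the distance in kilobases from the start of the first gene drawn, for 2 stretches of chromosome 11 and 1 stretch of chromosome 9; both points of a gene are set slightly apart to either side of its start. The 4 genes from Ccl7 to Ccl8 stand at 3.56 to 4.70 in tumors, and Ccr1 and Ccr2 stand at 4.39 and 4.36 in tumors, above Ccr9 and Xcr1.

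Promoter sequences are shown for the genes at the ends of this comparison, Cxcl12, which was lower in tumors, and Cxcl14 and Ccr2, the ligand and the receptor with the largest bounds among genes without a read in culture. They run from 250 bases before to 50 bases after the RefSeq start site in GRCm38.p6, 5′ to 3′ on the gene's strand, in lower case, with motif matches in capitals. The windows are chr6:117168285-117168584 on the plus strand, chr13:56296502-56296801 on the minus strand and chr9:124101933-124102232 on the plus strand.
Cxcl12: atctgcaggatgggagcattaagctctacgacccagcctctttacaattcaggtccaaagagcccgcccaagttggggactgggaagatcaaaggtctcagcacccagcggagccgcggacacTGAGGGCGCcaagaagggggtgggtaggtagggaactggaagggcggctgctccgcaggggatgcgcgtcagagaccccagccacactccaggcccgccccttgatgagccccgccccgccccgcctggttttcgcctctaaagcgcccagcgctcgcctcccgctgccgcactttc
Cxcl14: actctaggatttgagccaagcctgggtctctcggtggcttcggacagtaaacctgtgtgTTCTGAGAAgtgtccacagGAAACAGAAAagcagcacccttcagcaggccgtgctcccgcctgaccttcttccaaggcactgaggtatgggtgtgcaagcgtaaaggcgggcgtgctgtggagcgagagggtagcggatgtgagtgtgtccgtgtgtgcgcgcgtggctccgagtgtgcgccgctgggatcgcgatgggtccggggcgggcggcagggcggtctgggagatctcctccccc
Ccr2: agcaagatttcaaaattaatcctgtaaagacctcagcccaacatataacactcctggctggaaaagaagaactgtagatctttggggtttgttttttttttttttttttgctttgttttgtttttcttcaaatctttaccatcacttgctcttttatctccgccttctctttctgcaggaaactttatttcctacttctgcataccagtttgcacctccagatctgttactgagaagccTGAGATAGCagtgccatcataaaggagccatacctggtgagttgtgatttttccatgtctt
Searched on both strands were GAAA and GAAA with any 2 bases between them, the core of the interferon-stimulated response element, TTCNNNGAA, the interferon gamma activated site, GGGA and TTCC with any 2 bases between them, a form of the NF-kappaB site, and TGANNNNGC, the core of the antioxidant response element that NRF2 binds. Capitals mark the antioxidant core in Cxcl12 and in Ccr2, and in Cxcl14 first the interferon gamma activated site and then the interferon-stimulated core. Promoters of 22 of the 31 genes matched by symbol, and 8 of them (36.4%) held the antioxidant core, against 41.3% of 32851 promoters in the table. Besides Cxcl14, no matched member held the interferon-stimulated core (3.44% of promoters) or the interferon gamma activated site (8.3%). The NF-kappaB form (1.47% of promoters) was found in Cxcl1, as 2 overlapping matches on the 2 strands of the same bases. A match of letters is a description of the window and does not show that a factor binds.

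Of 33 measured genes of receptor signalling and turnover, 16 were over 2-fold higher in tumors, against 13.6% of all genes, and 0 were over 2-fold lower, against 3.82% of all genes, with a median difference of 1.48. Gnai2, the most abundant inhibitory G protein subunit of the list, had a mean log2 CPM of 9.13 in tumors and 9.37 in cell lines. Gnb1, a beta subunit, had 8.90 in tumors and 9.36 in cell lines, and the GTPase Rac1, which drives protrusion of moving cells, had 8.23 and 8.63. The G protein subunits Gnai3, at 7.92 in tumors and 7.60 in cell lines, and Gng12, at 7.10 and 7.04, differed as little. Rgs16, which shortens the G protein signal, was the exception among the 6 most abundant genes, with 7.51 in tumors and 4.18 in cell lines. No read in cell lines was found for Rac2, the Rac form of blood cells, or for Rgs1, Rgs18 and Adrbk2.

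Family genes that carry other symbols lay mostly higher in tumors. Pf4, the platelet and megakaryocyte chemokine Cxcl4, had 254 reads in tumors and none in cell lines, and Ccrl2, an atypical receptor, had 57 and 3. Of 6 such genes measured, 4 were over 2-fold higher in tumors, against 13.6% of all genes, and 0 lower, against 3.82%. Among 15 genes of proteases and glycosaminoglycans that cut, shed or hold chemokines, 5 were over 2-fold higher in tumors and 0 lower, against the same shares, with a median difference of 0.67. Adam10, which sheds Cxcl16 and Cx3cl1, had a mean log2 CPM of 8.12 in tumors and 8.14 in cell lines. The perlecan gene Hspg2 had 9.99 in tumors and 9.74 in cell lines, and the matrix protease Mmp14 had 9.39 and 8.94. The syndecans Sdc2, at 9.18 in tumors and 7.81 in cell lines, and Sdc4, at 7.85 and 6.77, were over 2-fold higher in tumors, as was the protease Mmp2, at 8.50 and 7.42. Outside the highest genes and singled out after its values were seen, Mmp9 had 5.98 in tumors and 3 reads in cell lines.

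**Figure D5:**
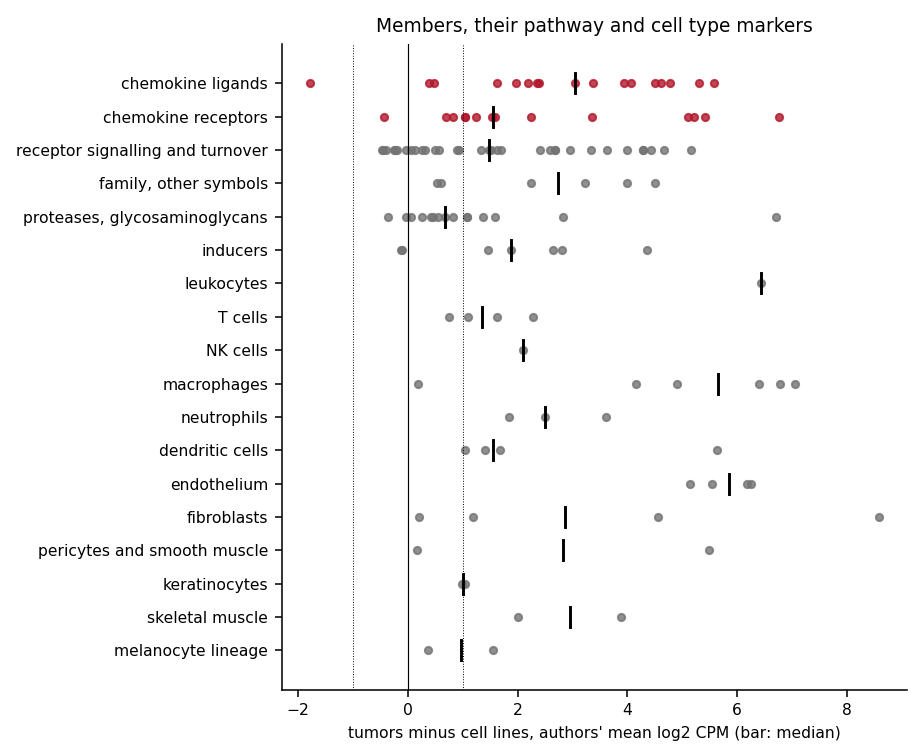
Difference of the authors' mean log2 CPM, tumors minus cell lines (horizontal axis), for each measured gene of the ligands and receptors (red) and of the other lists (grey); black bars are medians, and dotted lines mark a difference of 1 in either direction. Ligands have their median at 3.05 and receptors at 1.56, and the macrophage and endothelial lists at 5.65 and 5.86.

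Of 33 markers of host cells, 21 were over 2-fold higher in tumors, against 13.6% of all genes, and 0 were lower, against 3.82%. No read in cell lines was present for 13 of the 33 markers, which could only come out higher in tumors. These counts therefore do not support a direction. Under detection in both settings were 10 of the 33 markers, and 2826 of all 17285 genes. Over all genes, 82.2% were above detection in tumors and 74.8% in cell lines. Ptprc, the leukocyte marker CD45, had a mean log2 CPM of 5.70 in tumors and 3 reads in cell lines. Of 6 macrophage markers, 5 were above detection in tumors and 1 in cell lines, with a summed level of 240 CPM in tumors and 2.25 CPM in cell lines, led by Csf1r at 6.22 in tumors against 2 reads in cell lines. Cd68, at 5.25 in tumors, was the macrophage marker detected in culture, at 1.09, with 41 reads, and Itgam had 9 reads in tumors and 7 in cell lines. The lymphocyte markers measured were scarce. Of 6 T cell markers listed, 4 were measured, with a sum of 4.29 CPM in tumors and 0.201 CPM in cell lines. Cd4 was the highest of them, at 1.45 in tumors with 54 reads, and the others were under detection. Of 3 natural killer cell markers listed, only Klrk1 was measured, with 38 reads in tumors and none in cell lines. No B cell marker of the list was measured. Of 3 measured neutrophil markers, 2 were detected in tumors, and the sum was 9.36 CPM in tumors and 0.0402 CPM in cell lines. The 4 dendritic cell markers summed to 27.5 CPM in tumors, mostly Itgax, and 0.563 CPM in cell lines. All 4 endothelial markers were detected in tumors and none in cell lines, with 142 CPM in tumors and 0.483 CPM in cell lines. Among the fibroblast markers, Dcn stood at 8.03 in tumors and 5 reads in cell lines, while Col1a2 stood at 10.51 in tumors and 10.31 in cell lines, so that this collagen did not separate tumors from culture. Of 7 melanocyte lineage genes listed, 2 were measured: Mitf had 4.23 in tumors and 2.67 in cell lines, and the pigment cell gene Pmel was nearly absent, with 13 reads in tumors and 8 in cell lines. Acta2 of smooth muscle had 6.69 in tumors and 6.52 in cell lines, and the keratinocyte markers Krt14 and Krt5 had 13 and 12 reads in tumors, against 1 and none in cell lines. The part of these cells in the chemokine and receptor values was not tested.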

How the data were processed

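RNA of 6 tumors and 6 cell line samples (RNeasy extraction, poly(A) selection, NEBNext Ultra II libraries) was sequenced by the authors. FastQC, Bowtie2 2.3.2, TopHat2 2.1.1 and the genome mm10 stand in the submitters' processing notes. No annotation, counting program, strand setting or normalization was found in the sources used here, so these are not given. Each of the 2 deposited tables held the authors' mean log2 CPM per gene over its 6 samples, which was used. It also held 3 columns of the authors' own comparison of knockout with control (fold change, p-value, adjusted p-value), which were not used, and their values are not given. The tests of knockout against control that were planned for values per sample could therefore not be run, nor could fits that leave out a replicate.

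Members and gene lists were chosen with earlier results of these data known. Each member with a mean log2 CPM above 1 in either table was described singly, except 1 that is not reported here, the others by counts, and of each other list at most 6 genes with the highest levels in tumors. Genes named because they had no read in cell lines, and Mmp9, Itgam, Acta2, Krt5 and Krt14, were added after their values were seen. Low values matched 2 reads added per sample: all 1127 low tumor values and all 2299 low cell line values between 1 and 12 reads fell within 0.15 of a whole number. After removal of the added count, CPM summed to 1000253 in tumors and 1000010 in cell lines. Folds are ratios of net CPM with exact 95% Clopper-Pearson counting intervals from the reads. Without a read in cell lines, 3 reads over 6 samples were set as the limit, and the tumor reads were taken as measured, so that the counting error of the tumor reads is not in these bounds. Replicates cannot be separated, so precision between samples is unknown. Exon lengths are unions of GENCODE M21 exons. Calculations used Python 3.11.15 with scipy 1.17.1, pandas 2.3.3 and numpy 2.4.6, and plots matplotlib 3.10.9.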

Additional observations from a re-analysis of the deposited data

How the results depend on the processing

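At a detection level of 0 in place of 1, 14 members were above it in cell lines, against 7, and in tumors 29 against 23. At a level of 2, 5 members were above it in cell lines and 19 in tumors. With a difference over 2 on the log2 scale, 0 members were lower in tumors, against 1 (Cxcl12), and 18 were higher, against 20. Between 20 and 25 members were higher in tumors with a detection level of 0, no filter, either centring of the differences (medians of 0.10 for all genes and −0.08 for 5925 genes above 5 in both tables) or the added count removed, the last chosen after seeing the data. No difference reversed its sign in 93 pairs of a member and a setting (3 settings per member), and 5 moved by more than the width of the gene's counting interval on the log2 scale divided by 2, which is unlimited for the 10 members without a read in cell lines: Cxcl12 under both centrings, and Cxcl16, Ccr1 and Cx3cr1 with the added count removed. The 10 highest members per length were the same 10 with the longest transcript, in tumors and in cell lines. No paired analysis was possible because the tables hold means over the samples, with no value per replicate, and other settings for knockout against control (another test, another pseudocount, no filter, the replicate block, leaving out each replicate) were not run. Members with few reads, such as Ccr4, Cxcr2 and Xcr1, are limited by depth.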

Other observations

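Genes known to induce chemokines were either higher in tumors or at similar levels in tumors and culture. The NF-kappaB subunits Nfkb1 and Rela had a mean log2 CPM of 7.12 and 6.51 in tumors, against 7.22 and 6.64 in cell lines. Irf1, a transcription factor induced by interferon gamma, had 5.96 in tumors and 4.49 in cell lines. The cytokine genes were near the bottom of the tables in culture: Il1b had 225 reads in tumors and none in cell lines, Tnf had 76 and 1, and Ifnb1, the interferon beta gene, had 31 and none. Of the 7 measured genes of this list, 4 were over 2-fold higher in tumors, against 13.6% of all genes, and 0 were lower, against 3.82%. All values pool knockout and control samples.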
